A study of Mus musculus with 6 samples.

Results

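The genes described here are the mouse heat shock proteins, their J-domain partners and the subunits of the cytosolic chaperonin. They were taken by name from the deposited table, as symbols that begin with Hspa, Hspb, Hspd, Hspe, Hsph, Hsp90 or Dnaj, or with Cct followed by a digit, together with Tcp1. This gave 83 of the 21958 genes in the table. They comprise 14 genes of Hsp70 and Hsp110, 3 of Hsp90, 2 of Hsp60 and Hsp10, 9 of the chaperonin (Cct and Tcp1), 4 Dnaja, 13 Dnajb, 28 Dnajc, 8 small heat shock proteins, and the Hsp70- and Hsp27-binding factors Hspbp1 and Hspbap1. Cct6a was not analysed here.

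RNA was measured in synaptoneurosomes, a brain fraction rich in pinched-off synaptic endings, made from hippocampus and adjoining cortex of male FVB mice aged 6 to 8 weeks, several mice to a preparation. The 6 libraries form 2 groups of 3, each replicate number being 1 preparation split into aliquots. The NMDA group holds RNA of pooled light and heavy polyribosomes from synaptoneurosomes given 50 µM NMDA and 10 µM glutamate for 30 s, then 120 µM of the NMDA receptor blocker APV, over 20 min of stimulation. The Total group holds total RNA of unstimulated synaptoneurosomes. Stimulation and fraction differ together between the groups and cannot be told apart. The study's methods also prewarm and incubate stimulated samples, and keep unstimulated controls on ice with cycloheximide. Temperature, incubation and cycloheximide may therefore differ with them. In what follows, "higher" and "lower" refer to the polyribosome libraries against the total libraries, and a positive log2 fold change means higher on polyribosomes.

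Heat shock proteins are molecular chaperones that bind unfolded stretches of other proteins. Hsp70 proteins bind and release clients in a cycle driven by ATP, J-domain proteins (Dnaja, Dnajb, Dnajc) bring the client and start ATP hydrolysis, and Hsp110 proteins exchange the nucleotide. Hsp90 finishes the folding of kinases and steroid receptors, the ring-shaped chaperonin folds actin and tubulin inside its cavity, and small heat shock proteins hold unfolded proteins without ATP. In neurons, Hsc70 (Hspa8) with auxilin (Dnajc6) strips clathrin from endocytosed vesicles, and cysteine string protein (Dnajc5) guards the proteins of synaptic vesicle release.

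Sites of 2 well-known regulatory motifs are shown first, since the members include the classical targets of both. The endoplasmic reticulum (ER) stress element is bound by factors of the unfolded protein response and was searched as CCAAT, 9 bases of any kind and CCACG. The heat shock element is bound by heat shock factors and was searched as 3 units alternating between GAA and TTC with 2 bases between them. Both strands were read in the RefSeq windows from 250 bases before to 50 bases after each start site (GRCm38.p6), in which 68 of the 83 genes had 87 windows. Each line below gives 30 bases, 5′ to 3′, with the motif in capitals. The ER stress element was in 3 member windows (3.45%), against 39 of all 32851 windows (0.119%). It lay in the windows of Hspa5, Hsp90b1 and Dnajc3.
Hspa5, chr2:34772019-34772048, plus strand: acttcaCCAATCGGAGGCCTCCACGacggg
Hsp90b1, first site, chr10:86705633-86705662, minus strand: acaagcCCAATCGCAAGGAGCCACGcttcg
Hsp90b1, other site, chr10:86705528-86705557, plus strand: actcaCCAATCGTGCCTCACCACGcactct
Dnajc3, chr14:118937821-118937850, plus strand: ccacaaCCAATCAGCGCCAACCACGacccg
The heat shock element was in 6 member windows (6.9%) of 4 genes, against 198 of all windows (0.603%). Hspd1 and Hspe1 stand head to head on chromosome 1, and the same site lies 144 bases before the start of Hspd1 and 89 bases before that of Hspe1. In it, 2 matches overlap. Dnajb6 had 1 site 46 bases before a start. That of Hsph1 lay after its start and was in more than 1 window.
Hspe1 and Hspd1, chr1:55088053-55088082, plus strand: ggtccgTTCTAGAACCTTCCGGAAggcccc
Dnajb6, chr5:29735843-29735872, plus strand: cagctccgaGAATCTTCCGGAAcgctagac
These matches describe letters in a window and were not tested as binding sites. The shares count windows and not separate sites, so 1 site can be counted more than once. Since the members include classical targets, the shares cannot serve as a test of the motifs. A member not named here had no window or no match to the exact pattern, so it is not shown to lack the element.

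Chaperone mRNAs took up between 0.563% and 0.7% of the counts of each library. Levels are given as CPM, counts scaled to library size by the TMM method, and levels of different genes are compared only as CPM per kilobase of exon. The 5 members with the highest CPM (Hsp90ab1, Hspa5, Hspa8, Hsp90b1 and Dnajc5) made up 48.8% of the members' summed CPM on polyribosomes and 43.7% in total RNA. Per kilobase, Hsp90ab1, the constitutive cytosolic Hsp90, led both groups with 397 on polyribosomes and 350 in total RNA. In total RNA it was followed by Hspa8 (232), Hsp90b1 (158), Hspa5 (146) and Hsp90aa1 (88.3). On polyribosomes Hspa5 (239) stood beside Hspa8 (224) and Hsp90b1 (204), and their libraries overlapped. This order is uncertain, because 63.4% of the 100-base stretches of Hspa8 and 47.5% of those of Hsp90aa1 also occur in transcripts of other genes. For Hsp90ab1 and Hspa5 that share was 0. How such reads were counted is not known, so the levels of Hspa8 and Hsp90aa1 may be misjudged. At the other end 14 members had a mean below 1 CPM, and Dnajb7, Dnajb8, Dnajc5g and Hspb9 had no count in any library. A count of 0 allows up to 3 counts, or 0.406 to 2.88 CPM depending on the library, with counting error only.

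**Figure D1:**
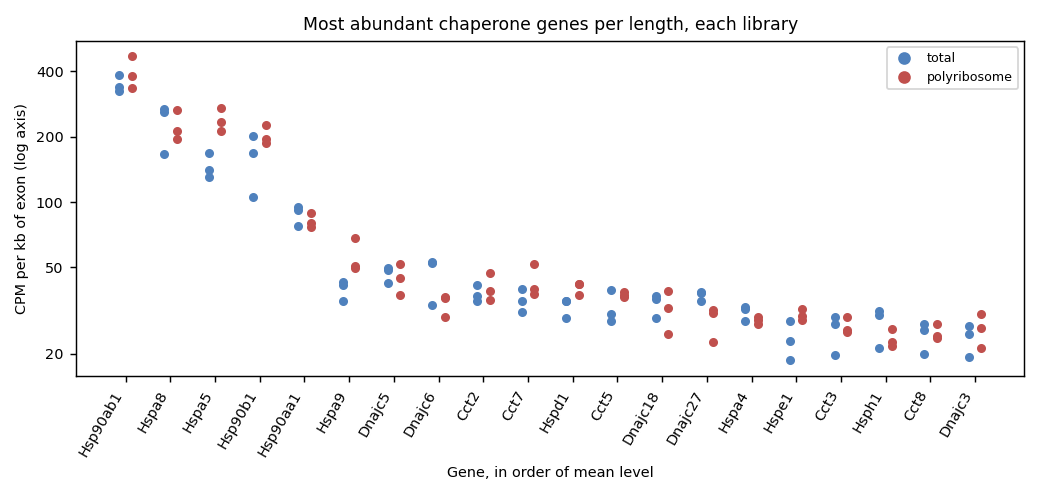
Level of the 20 most abundant chaperone genes in CPM per kilobase of exon (log axis), with 1 point for each of the 3 total (blue) and 3 polyribosome (red) libraries. Hsp90ab1 is highest in both groups, and the red points of Hspa5 lie above its blue points. Levels of genes that share sequence with other genes, such as Hspa8 and Hsp90aa1, are uncertain.

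After a filter that requires enough counts in at least 3 libraries, 67 of the 83 members could be tested, among 12255 genes in all. At an adjusted p under 0.01 in edgeR's quasi-likelihood test, fitted without the replicate number, 0 of the 67 were higher and 2 were lower, Dnajc13 and Dnajc21. Over all tested genes the same rule called 0.71% higher and 2.36% lower. At an unadjusted p under 0.05, 9 members were higher and 8 lower, against 15.4% and 17.1% of all genes. DESeq2 called 1 member higher, Hspa5, and 1 lower, Dnajc13, against 3.31% and 3.83% of the 9712 genes to which it gave an adjusted p. The members were spread around no difference, with 35 positive and 32 negative log2 fold changes and a median of 0.03, against a median of 0.00 over all tested genes.

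The replicate numbers pair the libraries, and edgeR with the replicate number as a block called 5 members higher and 6 lower. Over all tested genes the block called 11.8% higher and 13.2% lower, and the difference of the 67 members from this background was not tested. The 5 higher genes were Hspa5, Dnajb11, Dnajb9, Hspa9 and Hspa2, and the 6 lower ones Dnajc13, Dnajc21, Dnajb4, Dnajb5, Dnajc6 and Hspa12a. With both libraries of a preparation left out of the blocked test, between 2 and 3 members were higher and between 1 and 7 lower. The count of 1 lower came without preparation 1. Dnajb2 (higher) and Hsph1 (lower) were called only without preparation 3, and Hspb1 (higher) only without preparation 2. The polyribosome libraries lay entirely above the total libraries for 11 members and entirely below for 9, against 17.4% and 18.9% of all tested genes.

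**Figure D2:**
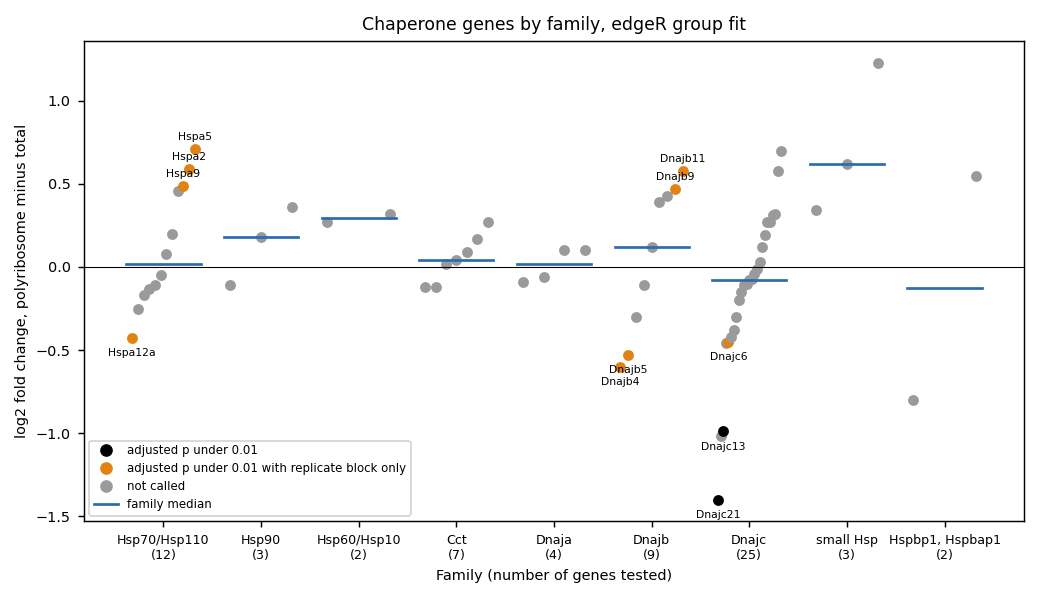
Log2 fold change of the 67 tested genes by family, with the family median as a line. Most points lie near 0. Black points (Dnajc13, Dnajc21) passed the test with group alone, and orange points passed only with the replicate block.

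The chaperones of the endoplasmic reticulum lumen had mostly positive values. Hspa5, or BiP, the Hsp70 of the ER lumen (chromosome 2 of GRCm38, 34771970 to 34777547, plus strand), had 796, 880 and 1015 CPM in polyribosome replicates 1 to 3 and 525, 631 and 488 CPM in the total libraries. The groups did not overlap, and the difference was present in all 3 preparations. Its log2 fold change was 0.71 ± 0.18 (standard error, SE, adjusted p = 0.0203, edgeR), which missed the threshold, and 0.70 with the block (adjusted p = 3.55e-06, edgeR). Hspa5 stayed past the threshold with each preparation left out of the blocked fit, where its log2 fold change lay between 0.53 and 0.83.

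Dnajb11 (ERdj3), a J-domain partner of BiP (chromosome 16, 22857845 to 22879634, plus strand), had 82.9, 95.6 and 101 CPM on polyribosomes and 58.6, 67.0 and 61.4 CPM in total RNA. The lowest polyribosome library was above the highest total library. The log2 fold change was 0.58 ± 0.16 (SE, adjusted p = 0.0299, edgeR) and 0.56 with the block (adjusted p = 2.43e-04, edgeR). Without preparation 2 the blocked fit no longer called it. Dnajb9 (ERdj4), which acts on BiP and on the stress sensor IRE1, had 62.6, 62.1 and 68.6 CPM against 42.7, 55.3 and 39.3 CPM. These groups were also separate, and the log2 fold change of 0.47 (adjusted p = 0.0776, edgeR) became 0.46 with the block (adjusted p = 0.00465, edgeR). No blocked fit with a preparation left out called Dnajb9.

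Hsp90b1 (Grp94), the Hsp90 of the ER, had 552, 642 and 531 CPM on polyribosomes and 474, 567 and 298 CPM in total RNA. The groups overlapped, since total replicate 2 was above 2 of the polyribosome libraries, although each preparation was higher on polyribosomes. The log2 fold change was 0.36 ± 0.21 (SE, adjusted p = 0.264, edgeR), it was 0.14 without total replicate 3 and 0.57 without total replicate 2, and the threshold was not passed with the block (adjusted p = 0.01 after rounding, edgeR). The other lumenal members were Hspa13 (0.20), Dnajc3 (0.12), a J-domain protein that also inhibits the kinase PERK, and Dnajc10 (-0.20), a disulfide reductase, none called with or without the block. The lumenal genes, grouped by hand with the values known, had 6 positive log2 fold changes of 7 and a median of 0.36. The block called 3 of them higher, against 11.8% of all genes. The 6 J-domain proteins anchored in the ER membrane had 2 positive values, a median of -0.06 and no calls. The difference between these groups was not tested.

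A list of 10 ER folding enzymes and lectins, which are not members, gave the neighbouring genes of the same pathway. It had 7 positive log2 fold changes and a median of 0.54, no calls with group alone and 6 genes higher with the block, which called 11.8% of all genes higher. The 6 were Calr (calreticulin), Pdia3, Pdia4, Pdia6 and P4hb (disulfide isomerases) and Serpinh1 (the collagen chaperone), named here after their values were seen. Calr had a mean of 846 CPM on polyribosomes and 543 CPM in total RNA. The ER oxidases Ero1l and Ero1lb and the translocon J-domain protein Sec63 had log2 fold changes of -0.15, -0.27 and -0.25.

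**Figure D3:**
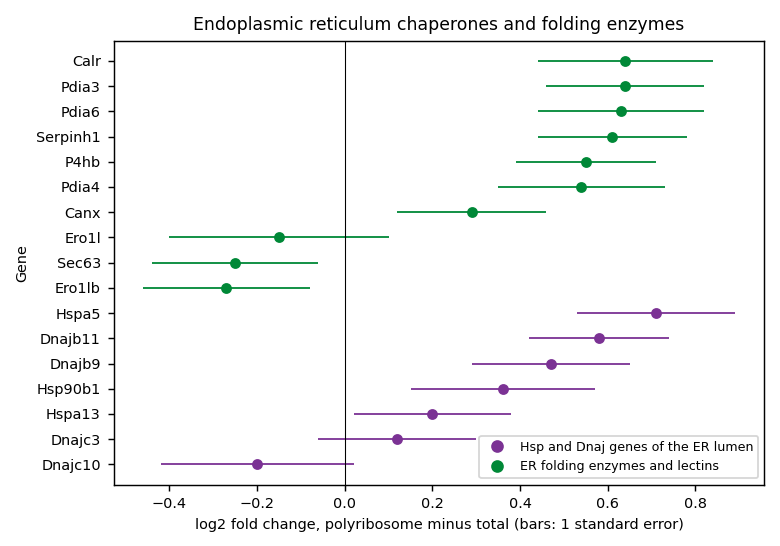
Log2 fold change (polyribosome minus total) with 1 standard error for the ER-lumen Hsp and Dnaj genes (purple) and the ER folding list (green), each from edgeR with 3 libraries per group. Hspa5 is highest among the purple points, while Dnajc10, Ero1l, Ero1lb and Sec63 lie left of 0.

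Markers of glia had values in the same direction as these genes. All 8 astrocyte markers had positive log2 fold changes (median 0.57), and their summed level was 44441.1 to 48725.7 CPM on polyribosomes and 34211.1 to 40057.0 CPM in total RNA. All 7 oligodendrocyte markers (median 0.43) and all 8 microglial markers (median 0.40) were positive too. With group alone, 1 oligodendrocyte gene was called (Cldn11, 0.83, named after its value was seen). The microglial sum was 939 to 1081.7 against 597 to 839 CPM. The oligodendrocyte sums were 10963.6 to 14814.6 against 7901.9 to 11059.6 CPM and overlapped. Endothelial markers had 6 of 7 positive values (median 0.24, sums of 314 to 545 against 325 to 338 CPM). The 8 neuronal markers had a median of 0.14, with sums of 10001.9 to 12229.3 against 9372.0 to 10668.5 CPM. With the block, 5 of 8 astrocyte, 4 of 7 oligodendrocyte and 4 of 8 microglial markers were called higher. So were 1 of 7 endothelial and 3 of 8 neuronal markers, against 11.8% of all genes. None of these markers was at 0 in all libraries, and their part in the ER result was not tested. Both libraries of a replicate number came from 1 preparation, so the markers, like the members, were compared across fraction and stimulation together.

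Outside the ER and mitochondria, the tested Hsp70 and Hsp110 genes had log2 fold changes between -0.43 and 0.59. The whole family, Hspa5 and Hspa9 included, had 6 positive and 6 negative values among 12 tested and a median of 0.01. Hspa8, the constitutive Hsc70, had 510, 635 and 467 CPM on polyribosomes and 622, 643 and 400 CPM in total RNA. The groups overlapped (log2 fold change -0.05 ± 0.20, SE, adjusted p = 0.888, edgeR), but 63.4% of its 100-base stretches also occur in transcripts of other genes, mostly of Gm26825, and the counting of such reads is not given in the sources used here. The Hsp110 gene Hsph1 (-0.25) and the related Hspa4 (-0.13) and Hspa4l (-0.17) were not called with or without the block. The value of Hspa4l turned to 0.39 with the block and offsets for GC and length, where it was called higher (adjusted p = 0.00867, edgeR).

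Hspa2, an Hsp70 best known from the testis and also present in brain, had 37.9, 53.5 and 67.5 CPM on polyribosomes and 32.8, 36.2 and 37.4 CPM in total RNA. All polyribosome libraries were above all total libraries, the first by little. The log2 fold change was 0.59 ± 0.21 (SE, adjusted p = 0.0741, edgeR) and 0.50 with the block (adjusted p = 0.00372, edgeR). The call was lost in the blocked test without preparation 2 and without preparation 3. Hspa12a, a distant Hsp70 relative abundant in brain, had 78.7, 81.2 and 69.8 CPM against 116, 97.5 and 94.0 CPM, with every polyribosome library lower. Its log2 fold change was -0.43 (adjusted p = 0.0811, edgeR) and -0.42 with the block (adjusted p = 0.00465, edgeR), a call that was lost without preparation 1 and without preparation 2.

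The stress-inducible Hsp70 genes Hspa1a and Hspa1b were near the limit of detection. Hspa1a had 11, 10 and 13 counts in the polyribosome libraries and 8, 5 and 2 counts in the total libraries, and was not tested. Hspa1b had a mean of 2.55 CPM on polyribosomes and 2.49 CPM in total RNA (log2 fold change 0.08). The near-identical pair share 47.1% of the 100-base stretches of Hspa1a, so their counts are uncertain. Hspa1l had 11 counts in all 6 libraries together. Of the heat shock factors and their partners, 4 of 6 were tested and 0 called by edgeR without or with the block. At an unadjusted p under 0.05 there were 2 of them, the factor-binding Hsbp1 (0.35) and Hsf2 (-0.55), named after their values were seen. That cutoff took in 15.4% of all genes as higher and 17.1% as lower. Hsf1 had a log2 fold change of -0.10.

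Of the Hsp90 genes, the cytosolic forms showed no detectable difference. Hsp90ab1 had 848, 964 and 1188.4 CPM on polyribosomes and 823, 851 and 975 CPM in total RNA. Its groups overlapped (log2 fold change 0.18 ± 0.18, SE, adjusted p = 0.528, edgeR). The stress-inducible Hsp90aa1 had 259, 301 and 272 CPM against 322, 312 and 262 CPM and a log2 fold change of -0.11 ± 0.17 (SE, adjusted p = 0.692, edgeR), with 47.5% of its 100-base stretches found in other genes, mostly Gm12346. Among 18 genes of Hsp90 co-chaperones 17 were tested, with 9 positive values, a median of 0.11 and no calls with group alone. The block called 2 of them higher and 1 lower, against 11.8% and 13.2% of all genes. The higher ones were Fkbp4, an immunophilin of steroid receptor complexes (71.6 ± 9.34 against 44.6 ± 5.08 CPM, SD, n = 3, log2 fold change 0.70), and Cdc37, which brings kinases to Hsp90 (44.9 ± 9.63 against 26.4 ± 4.54 CPM, log2 fold change 0.76). The lower one was Cdc37l1 (log2 fold change -0.53), a relative of Cdc37 named after its value was seen.

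The mitochondrial chaperones had mostly positive values. Hspa9 (mortalin), the Hsp70 of the matrix that also pulls proteins through the import pore, had 155, 151 and 209 CPM on polyribosomes and 131, 127 and 107 CPM in total RNA. The groups did not overlap, and preparation 3 gave the largest difference (0.96 on the log2 scale, against 0.24 and 0.25). The log2 fold change was 0.49 ± 0.18 (SE, adjusted p = 0.0757, edgeR), and 0.45 with the block (adjusted p = 0.00352, edgeR), a call lost with any 1 preparation left out.

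Hspd1 (Hsp60), the matrix chaperonin, had 101, 90.1 and 102 CPM against 84.7, 85.1 and 71.0 CPM, and its lid Hspe1 (Hsp10) had 25.0, 23.2 and 22.2 CPM against 21.9, 17.7 and 14.4 CPM. Both were separate between the groups and neither passed the test (log2 fold changes 0.27 and 0.32, adjusted p = 0.255 and 0.267, edgeR). Shared sequence came to 26.9% of the 100-base stretches of Hspd1 and 22.4% of those of Hspe1, and their gene models overlap. Of the mitochondrial J-domain proteins, Dnajc15, which sits at the import motor, had 10.0, 11.3 and 13.8 CPM against 8.69, 6.70 and 7.67 CPM (log2 fold change 0.58, adjusted p = 0.114, edgeR), and its counterpart Dnajc19 had a log2 fold change of -0.15. Dnaja3 (0.10), Dnajc11 (-0.01) and Dnajc30 (0.03) were near 0. In all, 6 of 8 mitochondrial members, a group made by hand, were positive with a median of 0.18. Of all tested genes, 50.1% were positive. Hspa9 was the only 1 of the 8 that the block called, against 11.8% of all genes called higher. On the list of mitochondrial folding and proteolysis genes all 5 tested were positive (median 0.30). The block called 1 of them higher, against 11.8% of all genes. It was the protease subunit Clpp (log2 fold change 0.56), named after its value was seen.

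The cytosolic chaperonin is a double ring in which each ring holds 1 copy of every subunit type. Its 7 tested subunits lay within a 2.53-fold range per kilobase, from 15.5 CPM per kilobase for Cct4 to 39.1 for Cct2 (mean of 6 libraries). Log2 fold changes ran from -0.12 to 0.27 with a median of 0.04, and none was called with or without the block. Cct7 had 92.3, 96.6 and 126 CPM on polyribosomes and 97.1, 85.7 and 75.8 CPM in total RNA, with overlapping groups and the highest log2 fold change (0.27 ± 0.18, SE, adjusted p = 0.318, edgeR). Tcp1 (Cct1) had 74.3, 66.7 and 63.4 CPM against 80.5, 75.0 and 64.3 CPM and a log2 fold change of -0.12 ± 0.16 (SE, adjusted p = 0.656, edgeR). It shares 20.2% of its 100-base stretches with the overlapping gene Acat3, so its value is uncertain. Cct2 (0.09), Cct3 (0.04), Cct4 (-0.12), Cct5 (0.17) and Cct8 (0.02) had standard errors of 0.17 to 0.20.

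The subunits differed together between preparations. All 7 were lower on polyribosomes in preparation 1 and 5 of 7 in preparation 2, with medians of -0.09 and -0.12, while 1 of 7 was lower in preparation 3 (median 0.43). Preparation 3 holds the shallowest library, total replicate 3, in which the summed level of the chaperonin genes was 384 CPM against 460 and 517 CPM in the other total libraries. Polyribosome replicate 3 had the highest sum, 521 CPM against 480 and 453 CPM in the other polyribosome libraries. The median log2 fold change turned negative without total replicate 3 (-0.08) and without polyribosome replicate 3 (-0.03). With scaling by total counts it was -0.07, but that scaling put the median of all genes at -0.11. The testis form Cct6b had 3 counts and Cct8l1 had 2 counts in all libraries together. Prefoldin, which hands actin and tubulin to the ring, and the phosducin-like cofactors had 3 positive values of 8 and a median of -0.04. The prefoldin subunit Pfdn2 had 17.1 ± 5.55 against 31.8 ± 6.83 CPM (SD, n = 3) and a log2 fold change of -0.87 (adjusted p = 0.0294, edgeR), and it was called lower with the block (adjusted p = 1.08e-05, edgeR).

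**Figure D4:**
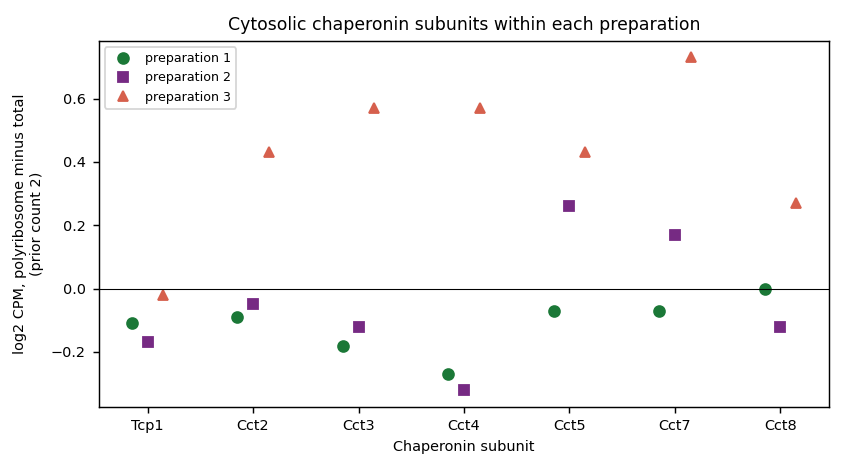
Difference in log2 CPM (polyribosome minus total, prior count 2) of the 7 tested chaperonin subunits within each of the 3 preparations. Preparation 1 lies at or below 0 for every subunit, and preparation 3 above 0 for all but Tcp1.

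The Dnaja genes, the broad-range J-domain partners of cytosolic Hsp70, had log2 fold changes from -0.09 to 0.10. Dnaja1 had 49.4, 50.8 and 42.0 CPM on polyribosomes and 53.4, 51.9 and 40.3 CPM in total RNA. It overlaps Smu1, and 24% of its 100-base stretches also occur in transcripts of other genes. Dnaja2 had 47.1, 49.3 and 50.9 CPM against 41.7, 47.6 and 48.9 CPM. The groups overlapped for all 4 genes, and none was called. Dnaja4 (-0.09) shares 51% of its 100-base stretches with the overlapping gene Wdr61, so its value is uncertain.

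The Dnajb genes, most of which act in the cytosol or ER, split in both directions. Beside Dnajb11 and Dnajb9, which were called higher with the block, Dnajb4 and Dnajb5 were called lower. Dnajb4 had 17.9, 16.7 and 16.5 CPM on polyribosomes and 30.3, 21.1 and 25.9 CPM in total RNA, without overlap (log2 fold change -0.60, adjusted p = 0.0472, and -0.59 with adjusted p = 0.00273 with the block, edgeR). Dnajb5 had 35.6, 38.1 and 30.9 CPM against 58.1, 44.9 and 47.0 CPM, also without overlap (log2 fold change -0.53, adjusted p = 0.0566, and -0.51 with adjusted p = 0.00218 with the block, edgeR). Both calls were lost without preparation 1 and without preparation 2, and with the block and the GC and length offset Dnajb4 was at -0.22 (adjusted p = 0.324, edgeR). Dnajb14, which is anchored in the ER membrane, had 170, 202 and 110 CPM against 191, 218 and 185 CPM, and the groups overlapped (log2 fold change -0.30, adjusted p = 0.331, edgeR). Dnajb1, the main heat-inducible J-domain protein, had a log2 fold change of -0.11, and Dnajb2 and Dnajb6, which keep aggregation-prone proteins soluble, had 0.43 and 0.12, none called. Of the 100-base stretches of Dnajb6, 36.3% also occur in transcripts of other genes.

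The Dnajc genes, a mixed class defined by the J domain alone, held both calls of the fit with group alone. Dnajc13 (RME-8), which works with Hsc70 on endosomes (chromosome 9, 104151282 to 104262930, minus strand), had 44.6, 35.4 and 27.2 CPM on polyribosomes and 77.5, 57.6 and 80.6 CPM in total RNA. The highest polyribosome library was below the lowest total library. Its log2 fold change was -0.99 ± 0.21 (SE, adjusted p = 0.00928, edgeR) and -0.95 with the block (adjusted p = 1.08e-08, edgeR). Fits without 1 library put it between -1.18 and -0.82, and the adjusted p stayed under 0.01 without polyribosome replicate 1 but not without any of the other 5 libraries. The blocked call held with each preparation left out. The gene overlaps another annotated gene, and reads in the overlap are uncertain.

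Dnajc21, a ribosome biogenesis factor (chromosome 15, 10446756 to 10470516, minus strand), had 3.52, 4.82 and 2.88 CPM on polyribosomes and 12.2, 7.70 and 9.59 CPM in total RNA. Every polyribosome library was lower. The log2 fold change was -1.40 ± 0.29 (SE, adjusted p = 0.00932, edgeR) and -1.36 with the block (adjusted p = 1.78e-05, edgeR). It lay between -1.61 and -1.14 with each library left out, and none of these 6 fits called it. Without preparation 1 the blocked call was lost as well. Dnajc9, a histone chaperone, was at the other end with 10.7, 8.44 and 12.6 CPM against 5.21, 7.37 and 7.67 CPM (log2 fold change 0.70, adjusted p = 0.0855, edgeR), without overlap.

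Of the 25 tested Dnajc genes 9 were positive and 16 negative, with a median of -0.08. Dnajc5, cysteine string protein, had 302, 351 and 252 CPM on polyribosomes and 336, 328 and 285 CPM in total RNA. The groups overlapped (log2 fold change -0.07 ± 0.18, SE, adjusted p = 0.811, edgeR). Dnajc6, auxilin, had 211, 212 and 172 CPM against 308, 303 and 195 CPM, and total replicate 3 lay within the polyribosome range. The log2 fold change was -0.45 (adjusted p = 0.125, edgeR) and -0.43 with the block (adjusted p = 0.00391, edgeR), a call lost without preparation 1 and without preparation 2. Dnajc18, an ER membrane protein, had 168, 201 and 127 CPM against 183, 190 and 150 CPM (log2 fold change -0.08). The 4 members known from vesicle and endosome traffic (Hspa8, Dnajc5, Dnajc6 and Dnajc13), grouped by hand, had log2 fold changes between -0.99 and -0.05 with a median of -0.26. The sign of Dnajc5 and Hspa8 was not stable, since Dnajc5 had 0.11 with the GC and length offset and both had 0.04 without polyribosome replicate 3.

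**Figure D5:**
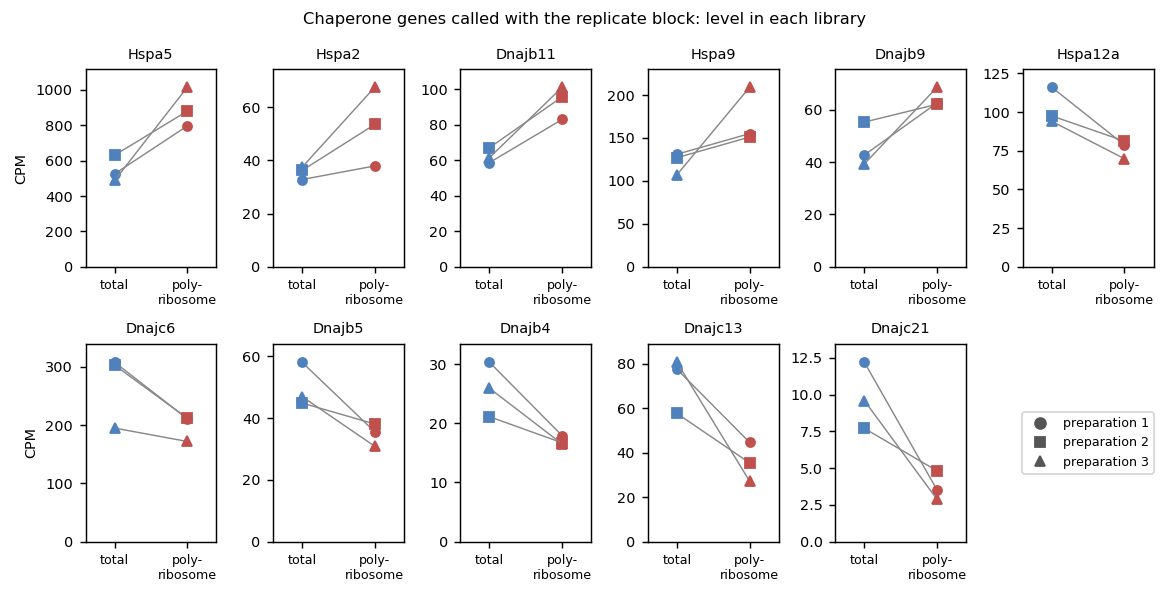
CPM in each library of the 11 members called with the replicate block, with lines joining the total (blue) and polyribosome (red) library of a preparation and each axis starting at 0. Lines rise in all 3 preparations for Hspa5, Hspa2, Dnajb11, Hspa9 and Dnajb9 and fall in all 3 for the other 6.

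Small heat shock proteins were scarce. Of the 8 Hspb genes, 3 were tested, all with means under 10 CPM. Hspb1 (Hsp27 family) had 4.87, 4.22 and 6.59 CPM on polyribosomes and 0.745, 3.35 and 3.84 CPM in total RNA. The groups did not overlap, and the log2 fold change was 1.23 ± 0.45 (SE, adjusted p = 0.0752, edgeR). It was 0.55 without total replicate 1, which had 3 counts, and 1.80 without total replicate 2, and a pseudogene shares 56.3% of its 100-base stretches. Hspb6 had 4.19, 4.07 and 2.88 CPM against 2.48, 3.35 and 0 CPM (log2 fold change 0.62), where total replicate 3 had no count and 1 count there corresponds to 0.959 CPM. Hspb8, a partner of Bag3 in selective autophagy, had a log2 fold change of 0.34. Hspbp1, an exchange factor of Hsp70, had 30.0, 36.3 and 45.3 CPM against 25.8, 27.1 and 21.1 CPM (log2 fold change 0.55, adjusted p = 0.0744, edgeR) without overlap. Hspbap1, the Hsp27-binding factor, had 1.49, 2.41 and 1.65 CPM against 1.74, 3.35 and 7.67 CPM, was lower in all 3 preparations and overlapped between the groups (log2 fold change -0.80, adjusted p = 0.264, edgeR).

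Among the 73 genes of the wider network, 68 were tested. They had 37 positive and 31 negative values and a median of 0.16, with 0 higher and 1 lower at adjusted p under 0.01 (edgeR) and 14 higher and 10 lower at unadjusted p under 0.05, against 15.4% and 17.1% of all genes. The block called 12 higher and 6 lower, against 11.8% and 13.2% of all genes. The genes of the network that DESeq2 called higher were Fkbp4 and Pdia3. The Hsp70 exchange factors and regulators had 8 positive values of 12 and a median of 0.28, with 3 called higher with the block, namely Bag6 (0.53), Hyou1 (0.40) and Sil1 (0.65), the last 2 being nucleotide exchange factors of BiP. Bag2, an exchange factor, had the highest value of that list (0.74, adjusted p = 0.284, edgeR) at a mean of 2.97 CPM. The chaperonin-like genes of Bardet-Biedl syndrome were all negative (3 of 3), led by Bbs12 (-1.47, adjusted p = 0.036, edgeR) at 1.2 CPM on polyribosomes and 3.78 CPM in total RNA. Bbs12 and Mkks (-0.68) were called lower with the block. The 6 tubulin cofactors had 3 positive values and a median of 0.07, with Tbce (-0.73) called lower with the block. Bag6, Hyou1, Sil1, Mkks and Tbce are named after their values were seen.

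Log2 fold changes were set against transcript properties. The Spearman correlation with transcript length was -0.34 over the 67 members and -0.33 over 12212 genes, that with GC content was 0.34 and 0.53, and that with mean CPM was -0.06 and 0.10 (12255 genes). The differences between members and all genes were not tested. These are descriptions across genes of the same 6 libraries, and genes are not independent replicates. With an offset for GC content and length in each library, the blocked test called 9 members higher and 3 lower, against 8.31% and 7.16% of all genes. Hspa5, Hspa9, Dnajb11 and Dnajb9 were again among the 9. The others were Hsp90b1 (0.62, adjusted p = 4.27e-05, edgeR), Hspa13, Dnajc3, Dnajc15 and Hspa4l, whose sign had turned. Of the 9 genes, 6 are lumenal, a group of 7 among the 67 tested members that was made by hand with the values known. This share was not tested. Hspa2, Dnajb4, Dnajc6 and Hspa12a were no longer called (0.36, -0.22, -0.21 and -0.28), while Dnajc13 (-0.63), Dnajc21 (-1.27) and Dnajb5 (-0.63) still were. With the offset and no block only Hspa5 was called (0.94, adjusted p = 0.00595, edgeR), against 0.278% of all genes called higher.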

How the data were processed

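The authors depleted ribosomal RNA, made strand-specific libraries, aligned reads with STAR (2.5.2b in the submitters' processing notes) to GRCm38 and deposited raw counts per gene on Gencode vM6 basic. How reads from repeated or overlapping sequence were counted is not given in the sources used here. The deposited columns of the authors' own DESeq2 comparison were not used. Library totals were 5294482 to 7361580 counts (polyribosome) and 1044955 to 3738022 (total), total replicate 3 being lowest. In R 4.3.3, edgeR 4.0.16 (TMM, filterByExpr, quasi-likelihood test, Benjamini-Hochberg over 12255 genes, threshold 0.01) was fitted on the whole table. The code was also run on simulated data. The simulated differences were larger than any log2 fold change given here for a member, and the simulated libraries were not paired. That run therefore does not measure how well differences of the size reported here are found. Alternatives used DESeq2 1.42.0, other scalings, no filter, thinning, left-out libraries, GC and length offsets (mgcv 1.9.3, Gencode vM21) and the replicate block. Offsets without the block, blocked fits without a preparation, and counts without overlapping or sequence-sharing members were added after seeing the data. The study's methods divide each preparation into aliquots, and same-numbered libraries deviated together (correlations across genes of 0.37, 0.26 and 0.38), so the numbers pair samples.

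Members, families, compartments and network lists were chosen with earlier results of these data known. Named were all Hsp90, Hsp60, Hsp10 and chaperonin genes and, in other families, the 3 most abundant, every call with or without the block, and the extremes. From the network, calls with group alone and the 3 largest differences in each direction were named, except for an item that is not reported here, and other genes are given for their role. Pair differences and log2 CPM used a prior count of 2. Gene positions are those of the deposited table, and coordinates of the printed sites are from RefSeq (GRCm38.p6).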

Additional observations from a re-analysis of the deposited data

How the results depend on the processing

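The counts of calls depended on the model more than on the scaling. Of all genes, 376 passed with group alone, 3063 with the replicate block, 1889 with the block and the GC and length offset, 151 with the offset alone, 693 with DESeq2, 1042 without the low-count filter and 1 after thinning to the smallest library. With each library left out 22 to 258 passed, and with each preparation left out of the blocked test 1200 to 3072 (1537 without preparation 1, 1200 without preparation 2). For chaperone genes higher on polyribosomes the count of 0 became 1 with DESeq2, without the filter and with the offset alone, 5 with the block, 9 with the block and offset, 0 with each library left out, and 2 to 3 in the blocked tests without a preparation. For chaperone genes lower it was 2, then 1 with DESeq2, 6 with the block, 0 after thinning and with the offset alone, 0 to 1 with each library left out and 1 to 7 in the blocked tests without a preparation. Among the 37 tested members that neither overlap nor share sequence with another gene the block called 4 higher and 5 lower. Over all tested genes it called 11.8% higher and 13.2% lower. The single network call became 3 with DESeq2, 4 without the filter, 18 with the block, 15 with block and offset, 0 after thinning and with the offset alone, 0 to 1 with a library left out (0 without total replicate 1 or 2), and 6 to 21 in the blocked tests without a preparation. DESeq2 gave Dnajc21 no adjusted p. Scaling by total counts shifted the median of all genes by -0.11 and moved the all-gene split from 87 higher and 289 lower to 42 and 366. The cause of these changes was not tested, except that thinning and left-out libraries use fewer counts or samples. With 3 libraries a group, an exact permutation test of 1 gene cannot give p below 0.1. No member called with group alone or with the block changed direction under any of these alternatives, while Hspa4l, called only with the block and offset, turned from -0.17 to 0.39. Total replicate 3, with 1044955 counts, limits what can be detected for genes of a few CPM.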
